A study of Capra hircus with 12 samples.

Results

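MSTRG.164751, MSTRG.164752, MSTRG.164757 and MSTRG.164758 are 4 of the 24116 loci listed for black goat testis. They carry close assembly numbers and stand in consecutive rows, 10 to 13, of every table. They were chosen by measured values, their lower FPKM at puberty than at prepuberty in these libraries, so that difference is given below as a description, with no test. RNA was measured in testis labelled WT (Capra hircus) at 4 ages: neonatal (titles D3), prepuberty (D30), puberty (D90) and postpuberty (D180). There were 3 libraries of each age except puberty, for which 2 were analysed here. No treatment is named in the labels. They do not tell whether each replicate is another animal, and the p-values cover the spread among these libraries, which may be technical.

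An MSTRG identifier is the name that StringTie, a transcript assembler, gives to a locus built from the reads. The number gives an order in the assembly, not a distance, and the tables hold no position, strand or gene name. None of the 24116 identifiers matched the goat gene table (0 matches), so the tissue was not checked against marker genes and no role can be given for these loci. In the testis before puberty, the seminiferous cords hold Sertoli cells and early germ cells, with Leydig and other somatic cells around them. At puberty germ cells enter meiosis and later stages fill the tubules, and the testis is known to transcribe many long non-coding RNAs as this happens. In whole testis, fewer cells of a type and less RNA per cell cannot be told apart.

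The unit was FPKM (fragments per kilobase of locus, scaled to library size), and whole reads and locus lengths were recovered from its steps. The implied lengths differed widely among the 4 loci. MSTRG.164751 came to 20138 bases and MSTRG.164758 to 22115 bases, longer than 98.2% and 98.5% of the listed loci. MSTRG.164757 came to 3706 bases and MSTRG.164752 to 1879 bases. At similar FPKM the 2 long loci therefore had many more reads. Whether the 4 loci overlap, or are pieces of 1 transcript, was not tested. Where loci overlap, their reads cannot be told apart.

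MSTRG.164751 stood at 1.02, 1.08 and 1.67 FPKM in the neonatal libraries and at 1.53, 1.47 and 1.38 FPKM in prepuberty, from 421 to 825 reads per library. It stood at 0.177 and 0.0561 FPKM in puberty (127 and 39 reads) and at 0.129, 0.157 and 0.284 FPKM in postpuberty (90, 89 and 173 reads). Every older library lay below every younger one, and the highest older library was postpuberty replicate 3.

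MSTRG.164752 stood at 1.14, 1.36 and 1.59 FPKM in the neonatal libraries and at 2.01, 1.31 and 1.43 FPKM in prepuberty, from 44 to 101 reads. It stood at 0.269 and 0.0154 FPKM in puberty and at 0.276, 0.170 and 0.123 FPKM in postpuberty. The older values rest on 18 and 1 reads in puberty and on 18, 9 and 7 in postpuberty, so this shortest locus was the least precise of the 4. Younger and older libraries did not overlap.

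MSTRG.164757 stood at 1.41, 0.838 and 1.54 FPKM in the neonatal libraries and at 1.75, 1.49 and 0.969 FPKM in prepuberty, from 61 to 174 reads. It stood at 0.0909 and 0.0313 FPKM in puberty (12 and 4 reads) and at 0.171, 0.106 and 0.205 FPKM in postpuberty (22, 11 and 23 reads). Younger and older libraries did not overlap, and both puberty libraries lay below all postpuberty ones.

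MSTRG.164758 stood at 0.749, 0.880 and 1.28 FPKM in the neonatal libraries and at 1.03, 1.17 and 1.06 FPKM in prepuberty, from 340 to 661 reads. It stood at 0.0876 and 0.0341 FPKM in puberty (69 and 26 reads) and at 0.0534, 0.0804 and 0.0762 FPKM in postpuberty (41, 50 and 51 reads). It had the lowest mean of the 4 loci at every age, in puberty by a margin far below the spread, and its younger and older libraries did not overlap.

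**Figure D1:**
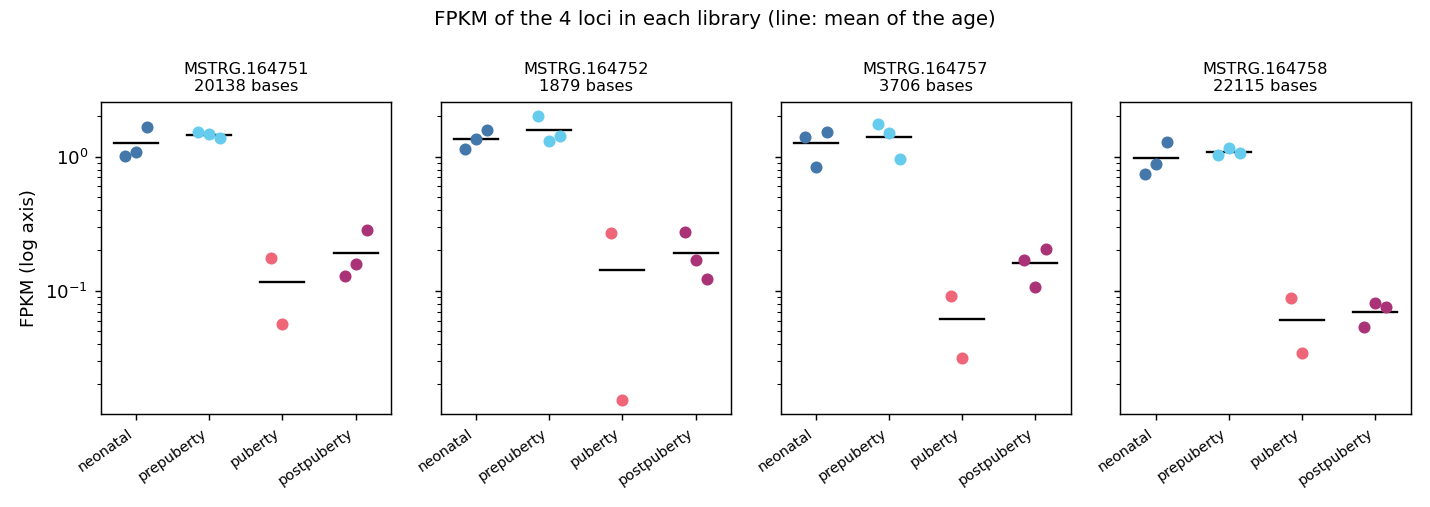
FPKM (log axis) of the 4 loci in each of the 11 libraries, by age, with the mean of each age as a line and the implied length above each panel. In every panel the 6 neonatal and prepuberty libraries lie above the 5 puberty and postpuberty libraries, and the lower of the 2 puberty points is replicate 3.

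All 4 loci kept the same order of ages by mean FPKM, with prepuberty highest, then neonatal, postpuberty and puberty. How the loci were chosen favoured prepuberty as the highest and puberty as the lowest mean. The differences between neonatal and prepuberty and between puberty and postpuberty were not called. The share of all tested loci with this order is not given here. Neonatal and prepuberty libraries overlapped for all 4 loci; over all tested loci, every prepuberty library was below every neonatal one for 17.4% and above for 6.23%. Puberty and postpuberty libraries overlapped for all but MSTRG.164757. The separation lay between the younger and the older pair of ages. That all 4 had a lower mean at puberty than at prepuberty follows from how they were chosen. The choice also favoured, without fixing it, the separation of all older from all younger libraries, so nothing is read from that. Over all tested loci, every older library was below every younger one for 28.1%, and every puberty library was below every prepuberty one for 36.8%.

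None of the 4 loci was absent from the older testes. Reads were recovered in 20 of 20 older values, from 1 to 173 reads, so the levels are low and not at 0. Within a library, the loci had percentile ranks, from the lowest FPKM up, of 70.3% to 90.5% among the listed loci in the younger testes and of 12.7% to 33.6% in the older ones. All 4 passed the filter used for tests (at least 1 FPKM in at least 2 libraries), and each did so through younger libraries only.

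From prepuberty to puberty, MSTRG.164751 went from 1.46 ± 0.0774 FPKM (SD, n = 3) to 0.117 ± 0.0856 (n = 2), which was 12.5-fold lower. MSTRG.164752 went from 1.58 ± 0.369 to 0.142 ± 0.179 FPKM, 11.1-fold lower. MSTRG.164757 went from 1.40 ± 0.398 to 0.0611 ± 0.0422 FPKM, 23.0-fold lower. MSTRG.164758 went from 1.09 ± 0.0748 to 0.0608 ± 0.0379 FPKM, 17.9-fold lower. The 4 loci thus kept 4.35% to 8.97% of the prepuberty mean. Over the 1681 loci called lower at this step, the median share kept was 16.4%, and 26.4% of those loci kept under 10%. MSTRG.164758 was not among those 1681 loci. By the rule for calls given below, a low locus must lose nearly all its FPKM, while an abundant one may keep more. The members were also chosen by this fall, so these shares do not compare its depth with that of other loci.

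On the scale used for calls, log2(FPKM + 1), the same differences were -1.14 ± 0.14 (SE, limma) for MSTRG.164751, -1.18 ± 0.15 for MSTRG.164752, -1.17 ± 0.17 for MSTRG.164757 and -0.98 ± 0.13 for MSTRG.164758. A locus at 1 FPKM that reaches 0 changes by 1 on this scale, and MSTRG.164758, at 1.09 FPKM in prepuberty, was just short of the required change of 1. limma voom on recovered reads adds a fraction of a read in place of 1 FPKM. By voom the log2 differences were -3.85 ± 0.47, -4.30 ± 0.76, -4.57 ± 0.63 and -4.29 ± 0.45 in the same order. Its offset weighs most where few reads remain, as for MSTRG.164752 with 1 read in puberty replicate 3. By the limma rule (adjusted p under 0.05 and a change of at least 1), 3 of the 4 loci were called lower, against 13.0% of the 12954 tested loci. The step was used to choose them, so nothing is read from that count.

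The older level differed between the 2 puberty libraries. Replicate 2 was above replicate 3 for all 4 loci, by ratios of 3.16 for MSTRG.164751, 2.91 for MSTRG.164757 and 2.57 for MSTRG.164758, while MSTRG.164752 had 18 reads against 1. Among the 1681 loci called lower at puberty, 78.8% were higher in replicate 2 than in replicate 3, with a median ratio of 1.44, against 58.8% of all tested loci. What sets these 2 libraries apart was not tested. The size of the fold rests on which library is taken. MSTRG.164751 was 8.23-fold below its prepuberty mean in replicate 2 and 26.0-fold in replicate 3, MSTRG.164757 15.4-fold and 44.9-fold, and MSTRG.164758 12.4-fold and 31.9-fold. MSTRG.164752 stood at 17.0% of its prepuberty mean in replicate 2 and, on 1 read, at 0.973% in replicate 3, with an exact Poisson 95% interval of 0.0246% to 5.42% that covers counting error only. The log2(FPKM + 1) scale compresses these values, and the mean difference of the 4 loci on it was -1.04 without replicate 3 and -1.19 without replicate 2, against -1.12 with both.

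Prepuberty replicate 1 held more of the RNA typical of the older testes than the other younger libraries did. Over 84 loci at 0 in the other 5 younger libraries and at 5 FPKM or more in every older one, it held 0.343% of the mean older level, against 0.0316% to 0.0681% for loci chosen likewise in the other 5. The 4 loci were not low in it. Without that library the mean difference at puberty was -1.06.

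From neonatal to postpuberty, MSTRG.164751 went from 1.25 ± 0.359 FPKM (SD, n = 3) to 0.190 ± 0.0825 (n = 3), and MSTRG.164752 from 1.36 ± 0.223 to 0.190 ± 0.0783. MSTRG.164757 went from 1.26 ± 0.372 to 0.161 ± 0.0506 FPKM, and MSTRG.164758 from 0.971 ± 0.279 to 0.0700 ± 0.0145. Postpuberty testes thus held 15.1%, 13.9%, 12.7% and 7.21% of the neonatal mean. None of the 4 differences reached 1 on the log2(FPKM + 1) scale, and 17.7% of all tested loci were called lower. From neonatal means of 0.971 to 1.36 FPKM, even a fall to 0 gives a change near 1 on that scale. The 2 figures are therefore not a comparison of sizes. By voom the log2 differences were -2.78 ± 0.36, -2.84 ± 0.69, -2.94 ± 0.52 and -3.78 ± 0.37 (SE) in the same order. Every postpuberty library was below every neonatal one for the 4 loci and for 34.3% of all tested loci. This contrast crosses the same break between ages and was not tested for the members.

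The step before the break asks whether the loci already changed between neonatal and prepuberty testes, and no change was called. limma called 0 of the 4 loci, against 2.07% of all tested loci, and 0 had an unadjusted p under 0.05. From neonatal means of 0.971 to 1.36 FPKM, a fall to 0 gives a change near 1 on the log2(FPKM + 1) scale. The limma count of calls could therefore register only a near-complete fall or a large rise, and smaller changes are not excluded by it. Prepuberty means were higher for all 4, by 1.11-fold to 1.16-fold. MSTRG.164751 differed by 0.14 ± 0.13 on the log2(FPKM + 1) scale (SE, limma adjusted p = 0.724) and MSTRG.164752 by 0.13 ± 0.14 (limma adjusted p = 0.831). MSTRG.164757 differed by 0.09 ± 0.15 (limma adjusted p = 1.0) and MSTRG.164758 by 0.09 ± 0.12 (limma adjusted p = 0.899). Voom on recovered reads also called 0, with 0 at an unadjusted p under 0.05. The size of the difference depended on the scaling. After rescaling to TPM, in which listed loci sum to the same total in every library, the 4 log2 differences were 0.85 to 0.93, with limma adjusted p of 0.0591 to 0.26 and 0 of the 4 called, against a median of 0.19 over all tested loci. The prepuberty libraries of this step also entered the choice of the members, as did the puberty libraries of the next.

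The step after the break asks whether the loci recovered or declined further between puberty and postpuberty testes. limma called 0 of the 4, against 1.40% of all tested loci, with 0 at an unadjusted p under 0.05, and voom gave the same 2 counts. From puberty means of 0.0608 to 0.142 FPKM, a fall to 0 stays below 1 on the log2(FPKM + 1) scale. The limma count of calls could therefore not register a further decline. MSTRG.164757 had the largest ratio of means, 2.63-fold higher in postpuberty, and its libraries did not overlap, as was so in that direction for 35.7% of all tested loci. Its difference was 0.13 ± 0.17 on the log2(FPKM + 1) scale (SE, limma adjusted p = 0.737) and 1.47 ± 0.75 by voom (limma voom adjusted p = 0.280). MSTRG.164751 was 1.63-fold higher (0.09 ± 0.14, limma adjusted p = 0.782), MSTRG.164752 1.33-fold (0.07 ± 0.15, limma adjusted p = 0.878) and MSTRG.164758 1.15-fold (0.01 ± 0.13, limma adjusted p = 0.984). With 2 puberty libraries and few reads, differences of this size were not resolved.

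The ratio of 2 loci within a library does not depend on how the library was scaled. Since the ratios come from the same libraries and the same break between ages that chose the loci, they are given as a description, with no test. MSTRG.164758 was at 0.735, 0.817 and 0.770 of MSTRG.164751 in the neonatal libraries and at 0.673, 0.797 and 0.772 in prepuberty. In the older testes it was at 0.495 and 0.607 in puberty and at 0.415, 0.512 and 0.268 in postpuberty. With MSTRG.164751 as the denominator, no older library reached the lowest younger one. As a share of the summed FPKM of the 4 loci, the libraries overlapped. That share of MSTRG.164758 was 16.3% to 21.9% in the younger and 8.49% to 24.9% in the older libraries. How often other pairs of loci separate by age in this way is not given here.

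The mean log2 ratio of MSTRG.164758 to MSTRG.164751 was -0.40 ± 0.10 (SD, n = 6) in the younger and -1.17 ± 0.45 (n = 5) in the older libraries, a difference of -0.78. The difference was -0.60 with the sum of the other 3 loci as the denominator and -0.23 with 0.1 FPKM added to both values.

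The other 2 ratios overlapped between younger and older libraries. MSTRG.164757 to MSTRG.164751 averaged -0.05 ± 0.36 in the younger and -0.49 ± 0.54 in the older libraries, a difference of -0.44, and of -0.66 without postpuberty replicate 1. MSTRG.164752 to MSTRG.164751 averaged 0.12 ± 0.22 and -0.25 ± 1.25, a difference of -0.37, and its lowest older value, -1.86 in puberty replicate 3, rests on 1 read. Between neonatal and prepuberty libraries the 3 mean log2 ratios differed by -0.04, -0.09 and -0.05, and an exact permutation test of 3 against 3 cannot give a p under 0.1.

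**Figure D2:**
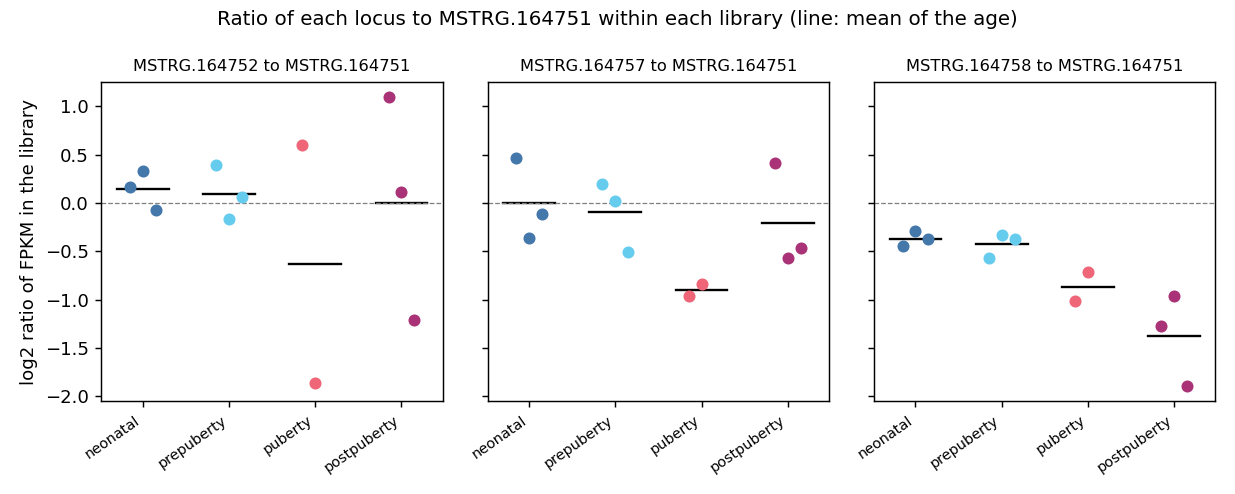
Log2 ratio of the FPKM of each of 3 loci to that of MSTRG.164751 within each library, by age, with the mean of each age as a line. For MSTRG.164758 the younger libraries lie between -0.57 and -0.29 and the older ones between -1.90 and -0.72, while the older points of MSTRG.164752 spread from -1.86 to 1.10.

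As shares of the summed FPKM of the 4 loci, MSTRG.164758 held 19.9% ± 2.20 (SD, n = 3) of the neonatal sum and 19.9% ± 3.14 (n = 3) of the prepuberty sum. Its share was 19.5% ± 7.68 (n = 2) at puberty and 11.7% ± 3.63 (n = 3) after it. MSTRG.164751 held 25.7% ± 1.93, 26.5% ± 2.14, 34.7% ± 8.94 and 30.8% ± 10.4 at the same ages. The share of MSTRG.164752 ran from 11.3% to 43.9% over the older libraries, and that of MSTRG.164757 from 14.6% to 29.8%.

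Across the 11 libraries, log2(FPKM + 1) of the members correlated pairwise with a Pearson r of 0.95 to 0.99. Both values of a point come from 1 library, and the break between ages dominates these figures. After the mean of each age was removed, r was 0.87 between the long loci MSTRG.164751 and MSTRG.164758 and 0.28 to 0.52 between the other pairs. The short loci have fewer reads, and with 11 libraries these values are a description.

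The neighbourhood was taken as every other listed locus within 100 assembly numbers of the run, which gave 14 loci. Of these, 10 were tested, 8 that passed the filter through younger libraries only and 2 through older ones only. At puberty 4 of the 10 were called lower (13.0% of all tested loci were) and 2 higher (23.7% were). Their median log2 change was -0.94, against 0.26 over all tested loci. The 8 had to be high in younger libraries and the 2 in older ones to pass, so the counts and values at this step describe the list and support nothing about it.

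The 4 neighbours called lower were MSTRG.164669, MSTRG.164817, MSTRG.164821 and MSTRG.164827. MSTRG.164669, the neighbour most like the members (r = 0.99 with their mean profile), went from 1.54 to 1.79 FPKM in prepuberty libraries to 0.105 to 0.125 in puberty (log2 change -1.27 ± 0.13 SE). MSTRG.164817 stood at 1.35 ± 0.136 FPKM (SD, n = 3) before and 0.0778 ± 0.0974 (n = 2) at puberty, a log2 change of -1.13 ± 0.13 (SE). MSTRG.164821 had 258 reads in the 6 younger libraries and 19 in the 5 older ones, and MSTRG.164827 had 120 and 2. MSTRG.164670, MSTRG.164771, MSTRG.164840 and MSTRG.164841 had log2 changes of -0.96, -0.92, -0.72 and -0.60, short of the required change of 1.

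Loci of the opposite kind lie between them in number. MSTRG.164807 had 0 reads in the 6 younger libraries and 599 in the 5 older ones, at 1.65 ± 0.0151 FPKM (SD, n = 2) in puberty and 2.15 ± 0.949 (n = 3) in postpuberty testes. MSTRG.164690 had 3 and 228 reads and stood at 1.43 ± 0.823 FPKM in puberty. These were the 2 called higher at puberty. Loci higher and lower in the older testes are thus interspersed along the numbers.

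The 4 neighbours that were not tested did not reach 1 FPKM in at least 2 libraries. MSTRG.164833 had 381 reads in the younger and 33 in the older libraries, while MSTRG.164721 had 0 and 32 and MSTRG.164853 had 2 and 90. MSTRG.164763, only 5 numbers after the run and 412 bases long, had 27 and 25. It stood at 1.42, 0.124 and 0.508 FPKM in neonatal, 0.362, 0.190 and 0.363 in prepuberty, 0.204 and 0.422 in puberty and 0.350, 0.0863 and 0.802 in postpuberty libraries. The locus nearest in number thus showed no separation of ages, on 1 to 12 reads per library.

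**Figure D3:**
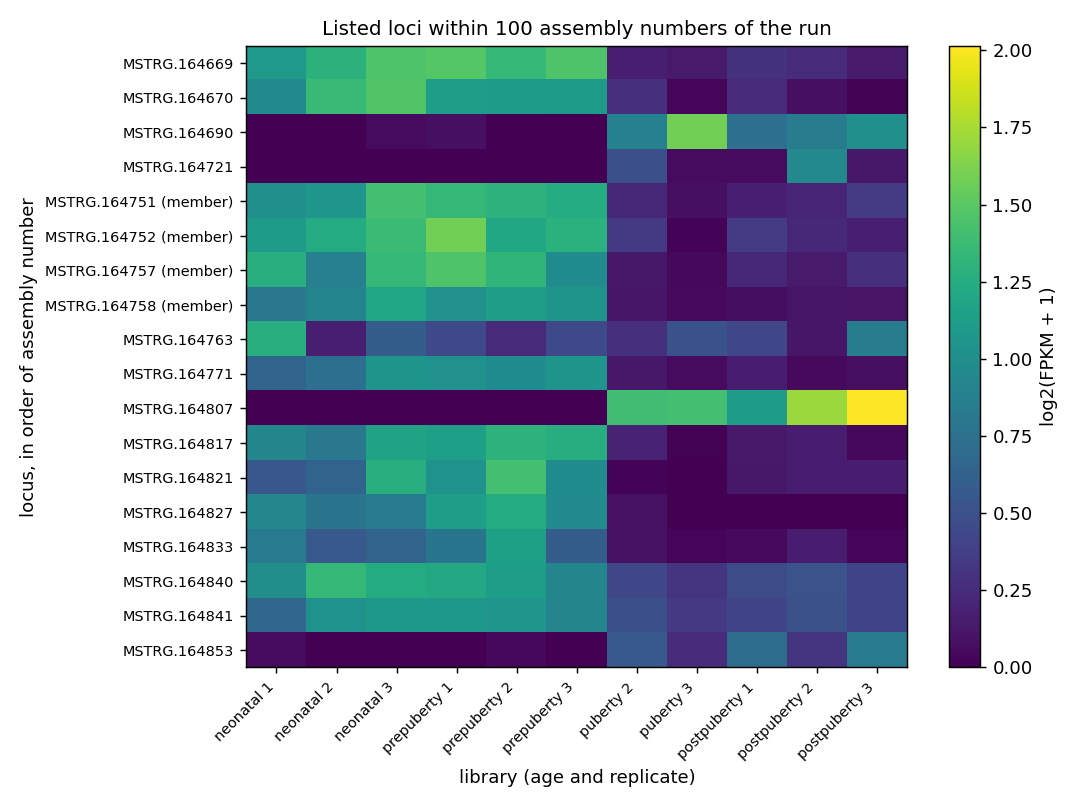
Log2(FPKM + 1), as colour, of the 18 listed loci within 100 assembly numbers of the run (rows, in order of number) in the 11 libraries (columns, by age). The 4 members and most neighbours are bright in the 6 younger libraries only, MSTRG.164690, MSTRG.164807, MSTRG.164721 and MSTRG.164853 in older libraries only, and MSTRG.164763 in single libraries of both kinds.

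At the steps on either side, limma called 0 of the 10 neighbours from neonatal to prepuberty (2.07% of all tested loci) and 0 from puberty to postpuberty (1.40%), with 2 and 0 at an unadjusted p under 0.05. These counts changed with the setting. As TPM, 3 of the 10 were called from neonatal to prepuberty, where 8.43% of all tested loci were. Voom called 1 from puberty to postpuberty, where 2.03% were. The 8 neighbours that passed the filter through younger libraries were too low at puberty for a limma call of a further fall. At puberty voom called 8 of the 10 lower and 2 higher. Of all tested loci it called 75.3% in either direction: 45.4% were called higher and the remainder of the 75.3% lower. The 8 had to be high in younger libraries and the 2 in older ones to pass the filter, so nothing is read from these counts.

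More than 100 and up to 1000 numbers from the run, a window chosen after values were seen, 57 of 116 listed loci were tested. Of these, 15 were called lower (26.3%) and 8 higher (14.0%) at puberty, with a median log2 change of -0.25. Over all tested loci, 13.0% were called lower and 23.7% higher, with a median of 0.26. Through which ages the 57 passed the filter is not given here, so nothing is read from their counts. Whether the 2 windows differ was not tested. In the tables as a whole, loci with close numbers had like profiles. The median Pearson r over the 11 libraries was 0.85 for 1272 pairs of successive tested loci 1 number apart, 0.73 for 3776 pairs 2 to 10 apart and 0.43 for 5889 pairs 11 to 100 apart, against 0.10 for all pairs of tested MSTRG loci. Likeness between loci of close number is thus common in these tables and is not particular to this run.

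**Figure D4:**
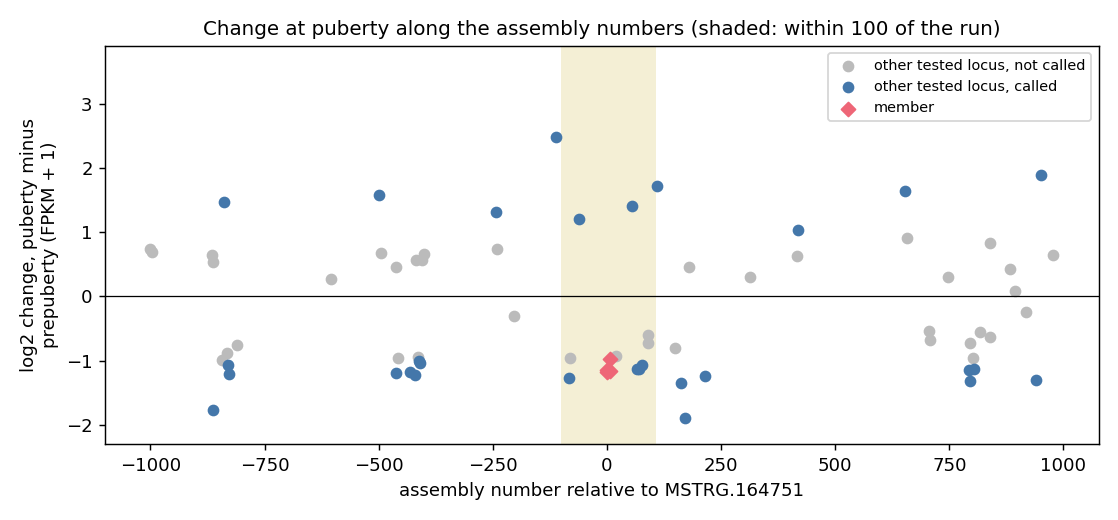
Log2 change from prepuberty to puberty, on the log2(FPKM + 1) scale, of every tested locus within 1000 assembly numbers of the run, against its number relative to MSTRG.164751; shading marks 100 numbers to each side. The members (diamonds) lie between -1.18 and -0.98, with 8 neighbours below 0 and 2 above 0 in the shaded part.

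The mean profile of the 4 loci over the 11 libraries was shared by many other loci, neighbours of the run among them. Of the 12950 other tested loci, 1883 (14.5%) had a Pearson r above 0.9 with it. The 3 most alike were MSTRG.326605 (r = 0.9938), gene2971 (0.9938) and MSTRG.390187 (0.9934). MSTRG.326605 stood at 5.61 ± 0.709 FPKM (SD, n = 3) in prepuberty and 1.20 ± 0.278 (n = 2) in puberty, gene2971 at 5.13 ± 0.684 and 1.19 ± 0.165, and MSTRG.390187 at 5.79 ± 0.621 and 0.885 ± 0.124. They were more abundant than the members at every age. Neither of the 2 MSTRG loci lies near the run in number.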

How the data were processed

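Each of the 11 tables held 1 FPKM value per locus, deposited by the authors. Per the submitters' processing notes, HISAT2 2.1.0 and StringTie 2.1.1 were used. Genome build, counter and filter: not given in the sources used here. The labelled puberty replicate 1 was left out, being not analysed here. Whole reads were recovered from the FPKM steps: a single set of library totals, 19128357 to 35614224 reads, made all 24116 loci whole multiples of 1 read in every library, within 0.001 reads. The implied length of a locus may be too short by a whole factor, and its recovered reads would then be too few by the same factor.

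Loci with at least 1 FPKM in at least 2 libraries (12954) were fitted as log2(FPKM + 1) with limma 3.58.1 in R 4.3.3, with 1 mean per age over all 11 libraries and a variance trend. p-values were two-sided and adjusted over all tested loci by Benjamini-Hochberg. Fold changes on this scale understate low loci. The planned exact permutation test of ratios (SciPy 1.17.1) crosses the break that chose the members, so it is not used as support. The procedure was tested on simulated data, with changes placed only in loci more abundant at prepuberty than the members. It therefore does not cover changes at the level of the members. The members, lists and thresholds were chosen with earlier results of these data known. Named loci were the members, neighbours within 10 numbers and the 3 loci most alike; other neighbours were named after their values were seen. Alternatives covered the pseudocount, filter, scaling, replicate block, samples in the fit, voom and each library left out. Same-numbered libraries of different ages did not deviate together (r of -0.117 to 0.0469 over 15 pairs).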

Additional observations from a re-analysis of the deposited data

How the results depend on the processing

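Counts of 0 members called from neonatal to prepuberty and from puberty to postpuberty held under every alternative run, including the replicate block, where both counts were 0; the block called 6 neighbours at puberty, as without it, and replicate numbers were not treated as pairs since none of the 15 same-number correlations passed 0.1. The mean log2 change of the 4 loci at puberty was -3.01 with a pseudocount of 0.1, -1.33 with quantile normalization, -3.07 as TPM, and -1.19 to -1.04 with 1 library left out. For postpuberty against neonatal it was -2.39, -1.05 and -1.63 in the same order, -0.73 under median of ratios scaling, and -0.99 to -0.83 with 1 library left out. The median of all tested loci at puberty was 0.26 with the authors' scaling, 0.50 under median of ratios, 0.06 under quantile normalization and 0.91 as TPM. Older minus younger, the log2 ratio of MSTRG.164758 to MSTRG.164751 differed by -0.78, and by -0.89 to -0.60 with 1 library left out. That difference was -0.23 with a pseudocount of 0.1 and -0.60 with the sum of the other 3 as denominator. Among the 10 neighbours, calls at puberty numbered 10 with a pseudocount of 0.1, as TPM and by voom (74.9%, 73.1% and 75.3% of all tested loci were called), against 6, and 4 to 7 with 1 library left out; TPM called 3 from neonatal to prepuberty and voom 1 from puberty to postpuberty. Small uncalled differences changed sign: MSTRG.164757 before puberty without neonatal replicate 2 (-0.05) or prepuberty replicate 1 (-0.02; -0.05 to 0.23 with 1 library left out); after puberty, MSTRG.164752 under quantile normalization (-0.01) or without puberty replicate 3 (-0.10; -0.10 to 0.23), and MSTRG.164758 under median of ratios (-0.01), quantile normalization (-0.02) or without puberty replicate 3 (-0.02; -0.02 to 0.05). The ratio of MSTRG.164752 to MSTRG.164751 differed by 0.03 without puberty replicate 3 and by -0.71 without postpuberty replicate 1. The cause was not tested. Reads limit the older levels, most of all for MSTRG.164752 at 1 to 18 reads per library.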
